A study of Arabidopsis thaliana with 6 samples.

Results

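A library made from 5 ng of total RNA was compared with the 5 libraries made from 100, 75, 50, 25 and 10 pg, called here the picogram libraries, and genes that differed in the same direction from all 5 were described by function. All 6 libraries of the pilot experiment entered the comparison, 1 library for each amount. The labels describe wild-type Arabidopsis thaliana of the Col-0 accession, sampled as seed at Boyes growth stage 6.30, from untreated greenhouse plants kept at 18 to 22 °C with 16 h of day and 8 h of night, whereas the study's methods give other light and temperature settings. These methods describe 1 sample of total RNA, from cotyledons of immature embryos cut by laser out of paraffin sections, which was diluted to all 6 amounts. Poly(A)-primed cDNA was amplified by PCR (SMART-Seq v4) and sequenced as read pairs, from which the strand cannot be read. The 5 ng library was sequenced on a first date and the picogram libraries on a second, so the amount, the date and the individual library cannot be told apart in any value given here. A further 100 pg run on the first date, with which the authors corrected for the date, was not analysed here. No group had a second library, and no difference carries a replicate error. Fewer cells of a type and less RNA per cell cannot be told apart in bulk RNA, and by the methods all amounts drew on the same cells.

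Embryos of oilseeds pass from growth to maturation. During growth, cells divide, replicate DNA, assemble ribosomes and, in a green embryo such as that of Arabidopsis, build chloroplasts. During maturation, division ceases, the cotyledons fill with storage proteins and with oil held in oil bodies, chlorophyll is later lost, and transcripts for protection against drying, such as late embryogenesis abundant (LEA) proteins, accumulate under abscisic acid and the B3-domain regulators ABI3, FUS3 and LEC2. B3 factors bind RY repeats and the bZIP factors of abscisic acid signalling bind ABRE and G-box elements, whereas E2F factors act on genes of DNA replication.

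The values were raw counts of read pairs, of which 51130296 were counted at 5 ng and 22403342 to 30781753 in the picogram libraries. They were scaled to CPM (counts per 1e6 read pairs) with TMM factors (TMM CPM), which correct for a few genes taking a large part of a library. The factor was 0.306 at 5 ng and 1.07 to 1.41 elsewhere, so TMM CPM values at 5 ng sum to more than those elsewhere. A gene was compared if the mean of its level at 5 ng and its mean level in the picogram libraries reached 1 TMM CPM, which held for 17293 of 33602 gene models. It was called higher or lower at 5 ng when the ratio to each of the 5 picogram libraries was at least 4-fold in that direction, after adding 1 TMM CPM to every value. This is a rule of size and not a test. It called 1506 genes higher (8.71% of the genes compared) and 1256 lower (7.26%), and left 14531 uncalled. A gene could pass the filter through 1 side alone, so the shares and medians of lists depend in part on the filter. Of the genes called higher, 409 had no pair in any picogram library, and 391 of those called lower had none at 5 ng. Against single picogram libraries, 2610 to 4945 genes were at least 4-fold higher and 3141 to 3355 lower. The median log2 ratio of all genes compared was -0.05, and between -0.14 and 0.22 against single libraries. Without TMM factors this median moved by -1.72, and the calls became 553 higher and 3448 lower, so that 13.8% of the calls were in the higher direction in place of 54.5%. Levels are given in TMM CPM throughout, in the order 5 ng, then 100, 75, 50, 25 and 10 pg. The floor of detection, taken as 3 read pairs, corresponds to 0.192 TMM CPM at 5 ng and to 0.0689 to 0.105 TMM CPM in the picogram libraries, and covers counting error only. For a side with no read pair, the fold is given against this floor.

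**Figure D1:**
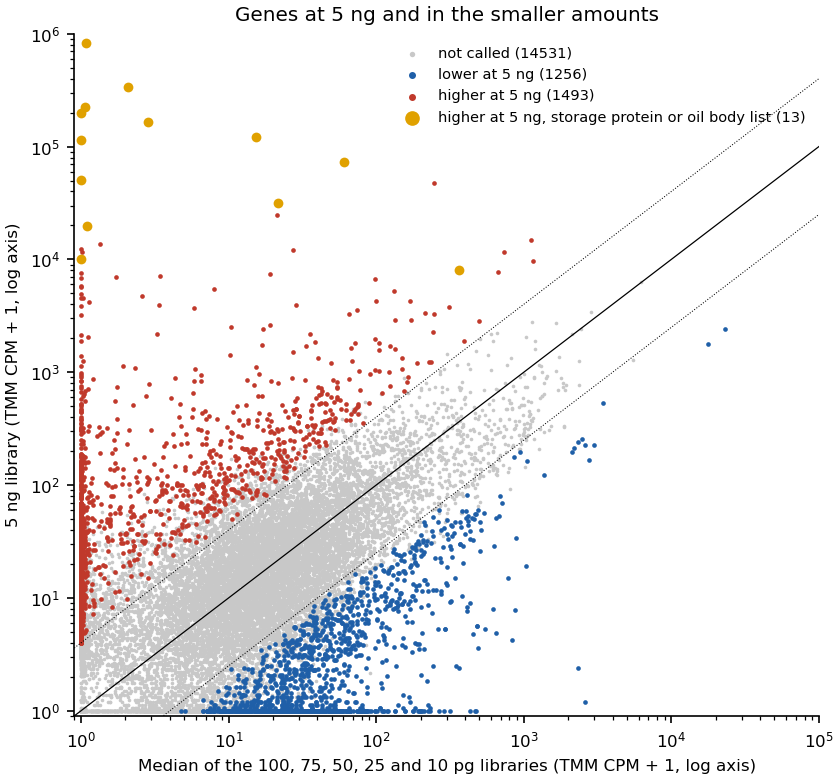
Level of each gene at 5 ng against its median level in the 5 picogram libraries, both as TMM CPM plus 1 on log axes, with 1 point for each of the 17293 genes compared. Genes called higher (1493 outside the storage protein and oil body lists, 13 in them) and lower (1256) at 5 ng form clouds away from the diagonal, and 14531 grey points were not called.

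In a second analysis, edgeR's quasi-likelihood test set the 5 ng library against the picogram libraries, with the lone library assumed to vary like the others. It called 883 genes higher (5.11%) and 1206 lower (6.97%) at a Benjamini-Hochberg adjusted p under 0.05. Of the genes called by the fold rule, 697 of 1506 higher (46.3%) and 963 of 1256 lower (76.7%) were among them. With the log2 amount as a covariate, edgeR called 58 higher and 156 lower. These p-values measure only how single libraries scatter.

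Genes of storage proteins and oil bodies took 66.5% of the read pairs at 5 ng and 0.0580 to 0.0693% in the picogram libraries. The 1493 other genes called higher took 16.3% at 5 ng and 2.02 to 2.49% in the picogram libraries. The 1256 genes called lower took 0.393% at 5 ng and 18.8 to 22.4% elsewhere. At the extremes, 224 genes reached at least 10 TMM CPM at 5 ng without a read pair in any picogram library, and 218 reached 10 TMM CPM in every picogram library without a pair at 5 ng. Some seed and embryo markers were expressed in all 6 libraries. WRI1, the regulator of seed oil synthesis, was at 248 against 67.2 to 106 TMM CPM. PDF1, a marker of the protoderm, was at 3418 against 2188 to 3532 TMM CPM. They were picked for being expressed throughout and so cannot check the labelled tissue. ALE1, from the same epidermal list as PDF1, was called lower at 0.128 against 33.1 to 70.2 TMM CPM. Lists of genes by function, 33 curated and 29 built from gene names, were counted beside these backgrounds.

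**Figure D2:**
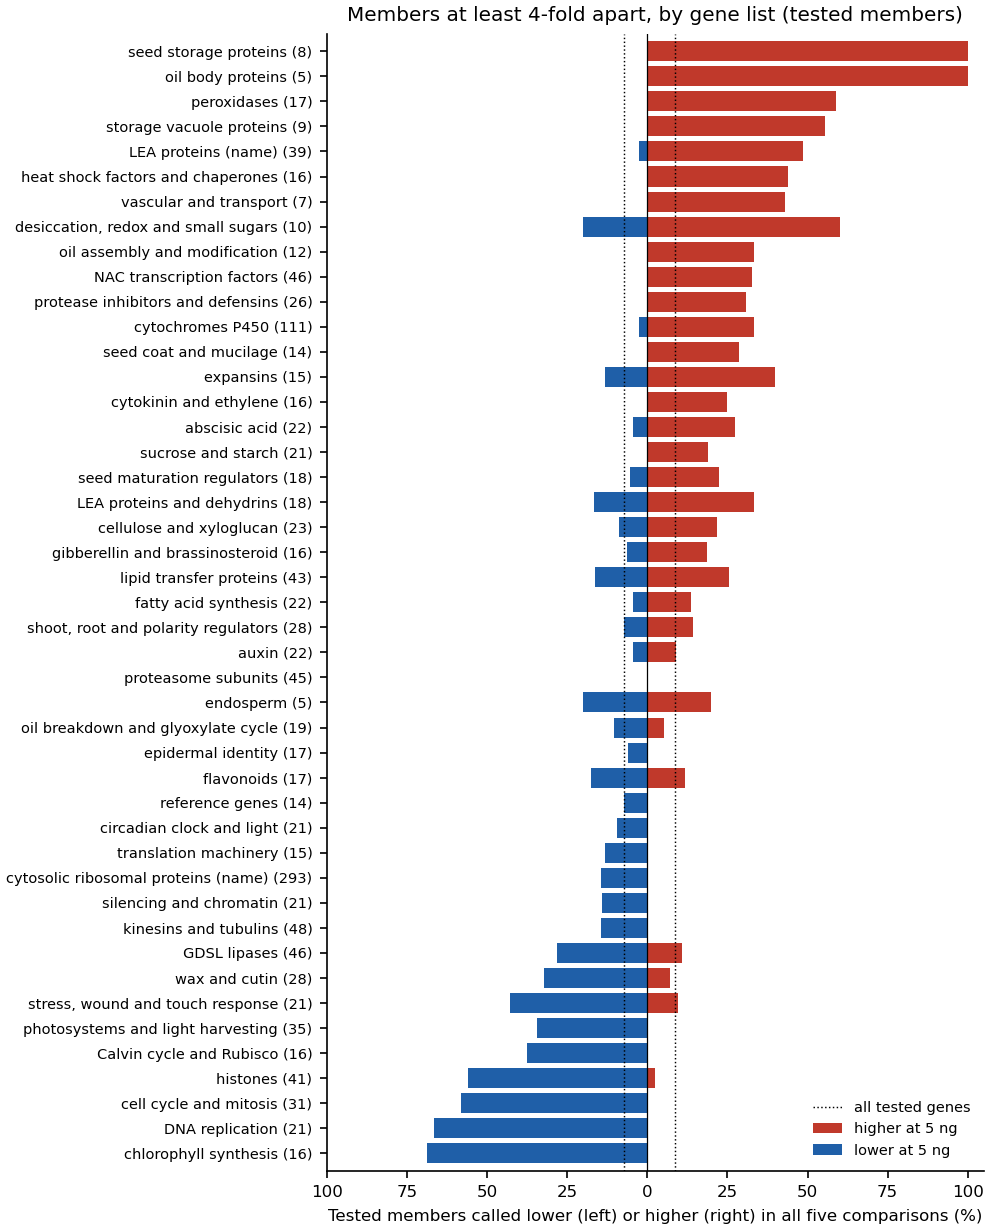
Genes called higher (red, to the right) and lower (blue, to the left) at 5 ng, as a percentage of the genes compared in each list or name family. The dotted lines mark the shares of all genes, 8.71% and 7.26%. Storage, oil body and heat shock lists extend to the right only, and DNA replication, chlorophyll synthesis and cell cycle lists to the left only.

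Beyond the storage protein and oil body lists, the called genes with the highest levels at 5 ng, not corrected for length, included small defence peptides and LEA proteins. A cupin (AT1G03890) and an oleosin family gene (AT3G01570) were also among the 20 highest, because their symbols did not match the annotation when the lists were built. PDF2.1, a plant defensin, was at 24719 TMM CPM at 5 ng and 12.7, 20.6, 20.4, 10.8 and 59 in the picogram libraries. A further knottin-type peptide, AT1G47540, was at 13809.8 TMM CPM at 5 ng and 0.345, 0.76, 1.68, 0 and 0 in the picogram libraries. Both were thus high at 5 ng only, and their picogram levels did not reach 60 TMM CPM. AT3G02480, a LEA family gene, was at 14884 TMM CPM at 5 ng and 825, 1057, 1126, 1144 and 1529.8 in the picogram libraries, a smallest ratio of 9.73-fold. AT1G04560, which encodes an AWPM-19-like membrane protein, was at 12007 TMM CPM at 5 ng and 26.4, 33.2, 29.6, 23.2 and 17.6 in the picogram libraries. The picogram libraries were close to each other in both genes and far below the 5 ng library. Transcripts of metabolism stood beside them. THI1, which makes the thiazole part of thiamin in plastids, was at 9645 TMM CPM at 5 ng and 1301, 1089, 1216, 1148 and 1104 in the picogram libraries. ATS3, an embryo-specific protein, was at 7509 against 0 to 0.0263 TMM CPM, and AT1G14950, a polyketide cyclase family gene, had 6794 TMM CPM at 5 ng and no read pair elsewhere, at least 64823-fold higher.

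Proteins that fill or sort cargo to the storage vacuole lay on the same side as the storage proteins. Of 9 genes compared in this list, 5 were called higher and 0 lower, with a median log2 ratio of 3.06. PAP85, a vicilin-like protein, was at 4552 against 0 to 0.23 TMM CPM. BETA-TIP, a tonoplast aquaporin of seeds that is counted with the aquaporins and not in this list, was at 3748 against 0.867 to 10 TMM CPM. BETA-VPE, the vacuolar processing enzyme that cleaves storage protein precursors, was at 973 TMM CPM at 5 ng and 4.57, 13.7, 15.3, 15 and 40 in the picogram libraries. VSR1, a receptor that sorts them to the vacuole, was at 372 TMM CPM at 5 ng and 42, 52.9, 39.8, 61.5 and 43.6 in the picogram libraries. In BETA-VPE and VSR1, every picogram library was below the 5 ng library by more than 4-fold.

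In genes of oil synthesis, the few calls were mostly on the higher side. In the list of oil assembly and modification, 4 of 12 genes were called higher and 0 lower (median log2 ratio 1.59). The called genes were FAD2, FAD3, KCS18 and ROD1, and the acyltransferases of this list were not called. Among these, TAG1 was at 86 against 26.8 to 87 TMM CPM and DGAT2 at 132 against 5.77 to 42.6 TMM CPM. In fatty acid synthesis, 3 of 22 genes were higher and 1 lower (median 0.72), against 8.71% and 7.26% of all genes compared. FAD2, the desaturase of the endoplasmic reticulum that makes linoleic acid, was at 7733 TMM CPM at 5 ng and 631, 525, 747, 672 and 688 in the picogram libraries. FAD3, which adds the next double bond to give linolenic acid, was at 6717 TMM CPM at 5 ng and 67, 97.7, 67.3, 118 and 160.2 in the picogram libraries. KCS18 (FAE1), the elongase condensing enzyme for the very long chain fatty acids of seed oil, was at 2171 TMM CPM at 5 ng and 2.27, 3.63, 3.39, 0 and 0.105 in the picogram libraries. The desaturases kept a clear picogram level, whereas KCS18 was near or below the floor at 25 and 10 pg. ROD1, which shuttles fatty acids between lipid pools, was at 299 against 16.9 to 51.3 TMM CPM. In the plastid pathway, SSI2, a stearoyl-ACP desaturase, was at 1334 against 117 to 171 TMM CPM, and a pair of acyl carrier proteins went opposite ways, ACP5 at 258 against 13.4 to 49.2 TMM CPM and ACP4 at 10.8 against 188 to 367 TMM CPM. Of the 19 genes of oil breakdown and the glyoxylate cycle, ICL (isocitrate lyase) was higher at 557 against 0 to 2.87 TMM CPM and 2 genes were lower, among them PMDH2, a peroxisomal malate dehydrogenase, at 0.32 against 22.5 to 42.1 TMM CPM.

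Genes for drying tolerance and redox protection were called higher in 6 of 10 and lower in 2 (median log2 ratio 2.88, range over single libraries 2.68 to 3.59). PER1, a peroxiredoxin with 1 catalytic cysteine known from embryos and aleurone, was at 5462 TMM CPM at 5 ng and 7.12, 4.53, 0.0526, 6.91 and 16.1 in the picogram libraries. MSRB6, a methionine sulfoxide reductase, was at 2158 TMM CPM at 5 ng and 0 in each picogram library, at least 20586-fold higher. ALDH7B4, an aldehyde dehydrogenase of drought response, was at 702 TMM CPM at 5 ng and 82.4, 64.8, 63.7, 77.3 and 116 in the picogram libraries. In PER1 and ALDH7B4 the 10 pg library had the highest picogram level. The lower members were CAT3, a catalase of leaves, and SIP1, a raffinose synthase, the latter at 0 against 5.05 to 54.8 TMM CPM. LEA proteins were called on both sides. In the curated list of LEA proteins and dehydrins, 6 of 18 were higher and 3 lower. Among 39 genes named LEA in the annotation, 19 were higher and 1 lower (median 2.31, or 2.19 with zeros set to the floor). EM1, a classic LEA protein of dry seeds, was at 393 TMM CPM at 5 ng and 33, 33.5, 44.3, 35.3 and 46.2 in the picogram libraries. RAB18, a dehydrin induced by abscisic acid, was at 233 TMM CPM at 5 ng and 8.41, 4.23, 7.75, 6.02 and 3.28 in the picogram libraries. COR15B, a chloroplast protein of cold acclimation, was at 0 TMM CPM at 5 ng and 39.3, 56.4, 54.8, 51.9 and 62.4 in the picogram libraries, at least 205-fold lower at 5 ng. SAG21, a mitochondrial LEA protein, was at 0.832 against 169.9 to 263 TMM CPM and AT1G54410, a dehydrin, at 32.8 against 406 to 953 TMM CPM.

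Heat shock factors and chaperones were called in 1 direction, 7 of 16 higher and 0 lower (median log2 ratio 3.32, or 3.26 with zeros set to the floor). HSFA2, a heat stress transcription factor, was at 98.6 TMM CPM at 5 ng and 0 in each picogram library, at least 941-fold higher. HSP101, which dissolves protein aggregates, was at 325 TMM CPM at 5 ng and 0.184, 0.859, 8.65, 0.314 and 0.0349 in the picogram libraries. HSP70 was at 953 against 0.237 to 12.2 TMM CPM and HSP17.4, a small heat shock protein, at 146 against 0 to 0.165 TMM CPM. None of these 4 genes exceeded 12.2 TMM CPM in a picogram library. edgeR called 5 higher and 2 lower in this list. The constitutive chaperone HSC70-1 lay the other way without reaching the rule, at 231 TMM CPM at 5 ng and 1741, 955, 898, 959.7 and 1166 in the picogram libraries. Among 27 genes named as small heat shock proteins, 6 were higher and 0 lower.

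Promoter sequences from RefSeq (TAIR10.1, 250 bases before the annotated gene start, read on the strand of the gene, 5′ to 3′) are shown for 3 genes higher at 5 ng, because they carry the elements bound by factors of seed maturation. Capitals mark the RY repeat (CATGCA), the G-box (CACGTG) and the ABRE (ACGTGT or ACGTGG), each searched on both strands. An ABRE can overlap a G-box, as in PER1 and AT3G02480, and the same letters then count for both. The windows are chr1:17780179-17780428, plus strand, for PER1, chr3:511970-512219, plus strand, for AT3G02480, and chr4:16493955-16494204, plus strand, for KCS18.
PER1: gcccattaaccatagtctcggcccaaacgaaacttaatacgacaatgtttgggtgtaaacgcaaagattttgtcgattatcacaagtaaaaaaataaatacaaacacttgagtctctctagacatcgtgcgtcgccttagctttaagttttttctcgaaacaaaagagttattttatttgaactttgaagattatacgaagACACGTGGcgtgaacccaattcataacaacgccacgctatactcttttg
AT3G02480: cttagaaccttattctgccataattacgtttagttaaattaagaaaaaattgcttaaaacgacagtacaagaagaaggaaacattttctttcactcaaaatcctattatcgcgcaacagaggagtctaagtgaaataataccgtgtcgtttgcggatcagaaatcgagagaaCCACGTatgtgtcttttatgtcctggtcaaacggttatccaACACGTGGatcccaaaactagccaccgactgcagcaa
KCS18: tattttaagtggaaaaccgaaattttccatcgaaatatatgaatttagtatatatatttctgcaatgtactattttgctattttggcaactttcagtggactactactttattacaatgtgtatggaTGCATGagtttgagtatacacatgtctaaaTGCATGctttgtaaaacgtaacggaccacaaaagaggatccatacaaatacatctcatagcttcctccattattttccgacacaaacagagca
Over all genes compared, 17165 promoters could be read and an RY repeat stood in 7.24% of them, against 15.8% of genes called higher and 5.49% of genes called lower. An ABRE stood in 18.4%, 29.3% and 20.9%, and a G-box in 8.39%, 11.6% and 9.44%. The TATA box (TATAAA, forward strand only) stood in 30.1%, 36.6% and 30.8%. Of the genes named LEA, 27 of 39 promoters held an ABRE, 16 of them among the 20 called. A match of letters is a description and not a bound site.

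**Figure D3:**
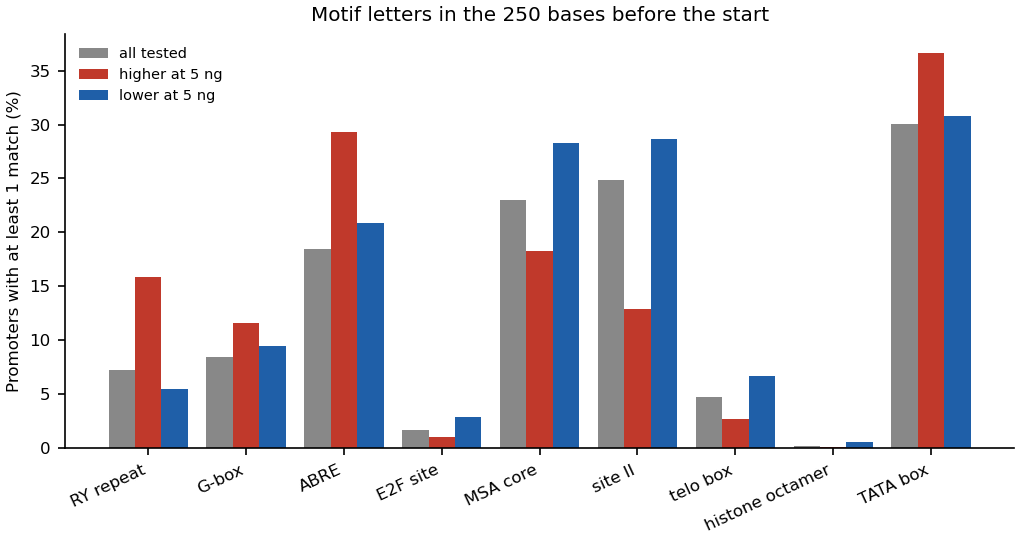
Share of promoters, in percent, that hold each motif within 250 bases before the gene start, for all genes compared (grey), genes called higher (red) and genes called lower (blue) at 5 ng. RY repeats stand in 15.8% of the higher genes against 7.24% of all, and site II motifs in 12.9% against 24.9%.

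Regulators of maturation did not move as a block, with 4 of 18 called higher, 1 lower and a median log2 ratio of -0.19, which turned positive with DESeq2 factors. DOG1, the regulator of seed dormancy, was at 329 TMM CPM at 5 ng and 0, 0, 4.07, 0 and 0 in the picogram libraries. EEL, a bZIP factor that acts on late LEA genes, was at 427 TMM CPM at 5 ng and 18.6, 30.5, 26.8, 26.8 and 22.9 in the picogram libraries. NF-YB6 (LEC1-LIKE) was at 178 against 0.21 to 6.31 TMM CPM and DPBF2, a bZIP factor, at 109 against 0.571 to 23.3 TMM CPM. LEC2 was the member called lower, at 0 TMM CPM at 5 ng and 26.1, 14.2, 22.5, 49 and 113 in the picogram libraries. The B3 factor ABI3 was not called, at 87.5 TMM CPM at 5 ng and 44.9, 17.5, 38.1, 35.3 and 36.4 in the picogram libraries. Genes of abscisic acid synthesis and signalling were higher in 6 and lower in 1 of 22. NCED9, a seed enzyme of abscisic acid synthesis, was at 61.4 TMM CPM at 5 ng without a read pair elsewhere, at least 585-fold higher, and AHG1, a phosphatase of seed abscisic acid signalling, at 20.1 TMM CPM, at least 192-fold higher. HAI1, another phosphatase of this group, was at 249.8 against 2.24 to 12.6 TMM CPM. ABI1, a phosphatase that restrains the same pathway, was the gene called lower, at 15.2 against 70 to 102 TMM CPM.

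Among the other hormones, 3 of 16 genes of gibberellin and brassinosteroid were called higher and 1 lower. GA20OX3, a gibberellin 20-oxidase, was at 2899 TMM CPM at 5 ng and 170.0, 145, 186, 155 and 182 in the picogram libraries. GA20OX2, another enzyme of this kind, was at 184 against 0 to 0.988 TMM CPM. Cytokinin and ethylene genes were called higher in 4 of 16, and none of these calls was made by edgeR. In the curated auxin list, 2 of 22 genes were called higher and 1 lower, close to the background shares. Families named for auxin response in the annotation held more calls. Of 13 genes named indole-3-acetic acid inducible, 5 were higher and 0 lower, and of 21 named SAUR-like, 6 were higher and 2 lower. TAA1, an enzyme of auxin synthesis, was at 85.1 against 8.59 to 19.1 TMM CPM.

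Several families named in the annotation were called mostly on the higher side. Of 17 genes named as peroxidases, 10 were higher and 0 lower (median log2 ratio 3.98). PRXR1 was at 11677 TMM CPM at 5 ng and 715, 706, 826, 738 and 784 in the picogram libraries. AT1G71695 was at 1240.1 TMM CPM at 5 ng and 233, 227, 262, 223 and 245 in the picogram libraries. AT2G38380 was at 159 TMM CPM at 5 ng and at 0 elsewhere, at least 1513-fold higher. The picogram libraries agreed within a narrow range in the first of these and in the next, and none of the 5 held a pair of the last. The called peroxidases AT1G68850, DOX1, AT4G37520, AT4G37530 and AT5G14130 also had no pair there. Such genes passed the filter through their 5 ng level alone. Cytochromes P450 were higher in 37 and lower in 3 of 111 (median 1.85). CYP86B1, a hydroxylase that makes suberin monomers, was at 287 against 0 to 4.13 TMM CPM. CYP98A3, of lignin synthesis, was at 231 against 10.7 to 40.5 TMM CPM. CYP78A9, whose overexpression enlarges fruits and seeds, was at 212 TMM CPM at 5 ng and 0 elsewhere. CYP51G1, an enzyme of sterol synthesis, did not differ by the rule, at 104 against 82.6 to 114 TMM CPM. NAC transcription factors were higher in 15 and lower in 0 of 46 (median 1.79, or 1.71 with zeros set to the floor). ATAF1, a NAC factor of stress responses, was at 375 TMM CPM at 5 ng and 0.758, 8.26, 10.7, 17.4 and 11.1 in the picogram libraries. NAM was at 50.5 TMM CPM at 5 ng and 0 elsewhere, at least 482-fold higher. WRKY factors were higher in 1 and lower in 4 of 29, and MYB factors higher in 9 and lower in 4 of 58. The difference between families was not tested. edgeR called 8 higher and 0 lower among the peroxidases, 19 higher and 2 lower among the P450 genes and 8 higher and 0 lower among the NAC genes.

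Inhibitors of proteases were called on the higher side, and proteases on both sides. Of 26 inhibitors and defensins, 8 were higher and 0 lower (median log2 ratio 2.08, or 1.96 with zeros set to the floor). TI2, a trypsin inhibitor, was at 2515 TMM CPM at 5 ng and 4.43, 11.1, 9.33, 15 and 0 in the picogram libraries. CYS2, a cystatin that inhibits cysteine proteases, was at 536 TMM CPM at 5 ng and 33.8, 58.2, 41.5, 62.6 and 37.1 in the picogram libraries. Of 81 proteases, 10 were higher and 9 lower, with AT1G62290, an aspartic protease family gene, at 4574 against 0 to 0.463 TMM CPM and the subtilase SBT1.3 at 8.19 against 299 to 382 TMM CPM. The annotation name RmlC-like cupins, which covers seed globulins and germin-like proteins, held 22 genes compared, of which 13 were higher and 1 lower. AT2G28490, a cupin of this name, was at 7368 TMM CPM at 5 ng and 24.4, 16.6, 20.8, 18 and 13.1 in the picogram libraries. GER3, a germin, was on the lower side at 0 TMM CPM at 5 ng and 83.7, 106, 114, 89.1 and 76.9 in the picogram libraries.

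Sucrose metabolism was called higher in 4 of 21 genes and lower in 0. SUS2, a sucrose synthase of maturing seeds, was at 731 TMM CPM at 5 ng and 0, 0, 0, 3.25 and 0 in the picogram libraries. SUS3 was at 135 TMM CPM at 5 ng and 1.84, 0.628, 1.08, 0.428 and 0.664 in the picogram libraries. SUS2 had no read pair in 4 of the 5 picogram libraries, and SUS3 stayed below 2 TMM CPM in each of them. BAM1, a plastid beta-amylase, was at 159 against 10.1 to 31.2 TMM CPM. Markers of other seed tissues also differed. Among regulators of shoot, root and polarity, WUS, HB-3, CUC1 and BBM were called higher, and ANT and TCP10 lower. HB-3 was at 23.2 TMM CPM at 5 ng and 0 in each picogram library, and ANT at 0 against 20.6 to 73.8 TMM CPM. In the vascular and transport list, 3 of 7 genes compared were higher and 0 lower, and the summed level of the list was 756 at 5 ng and 66.8 to 110.1 in the picogram libraries. SUC2, the sucrose transporter of the phloem, was at 435 TMM CPM at 5 ng and 6.94, 5.62, 0, 0 and 25.5 in the picogram libraries. In the seed coat list, 4 of 14 were higher and 0 lower, 3 (TT10, KNAT7 and STK) had no pair in any picogram library, and its sum was 335 at 5 ng and 161 to 231 in the picogram libraries. TT10, a laccase of the seed coat, was at 139.5 TMM CPM at 5 ng and 0 in each picogram library, at least 1331-fold higher. It made the largest part of the seed coat sum at 5 ng. Uncalled members lay on both sides, as GATL5 at 30.3 against 4.39 to 29.3 TMM CPM and TTG2 at 4.48 against 16.8 to 37.2 TMM CPM. STK, a MADS-box regulator of ovule and seed coat, was at 16.8 TMM CPM at 5 ng and 0 elsewhere. edgeR called neither SUC2 nor STK. Of 15 endosperm entries, 6 had no read pair in any library, 7 (among them the imprinted genes MEA, PHE1 and FWA) had none in the picogram libraries, and 5 could be compared, of which 1 was higher and 1 lower. The endosperm sum, 2763 at 5 ng and 257 to 459 in the picogram libraries, was carried at 5 ng by EPR1, an extensin-like protein known from the endosperm, at 2600.0 TMM CPM at 5 ng and 18.1, 10.1, 27.5, 24.6 and 1.36 in the picogram libraries, and in the picogram libraries by ICE1, a regulator of stomata, cold response and the endosperm, at 157 against 197 to 323 TMM CPM. RGE1 (ZHOUPI), a regulator of endosperm breakdown, lay the other way at 2.18 against 26.9 to 122 TMM CPM. MYB118, which the paper describes as restricted to the endosperm, was uncalled at 3.33 against 3.97 to 45.2 TMM CPM. SUC5 was also uncalled, at 0.256 against 0.0349 to 6.66 TMM CPM. By the methods the 6 libraries share 1 RNA sample, and the part of these markers in the other differences was not tested.

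**Figure D4:**
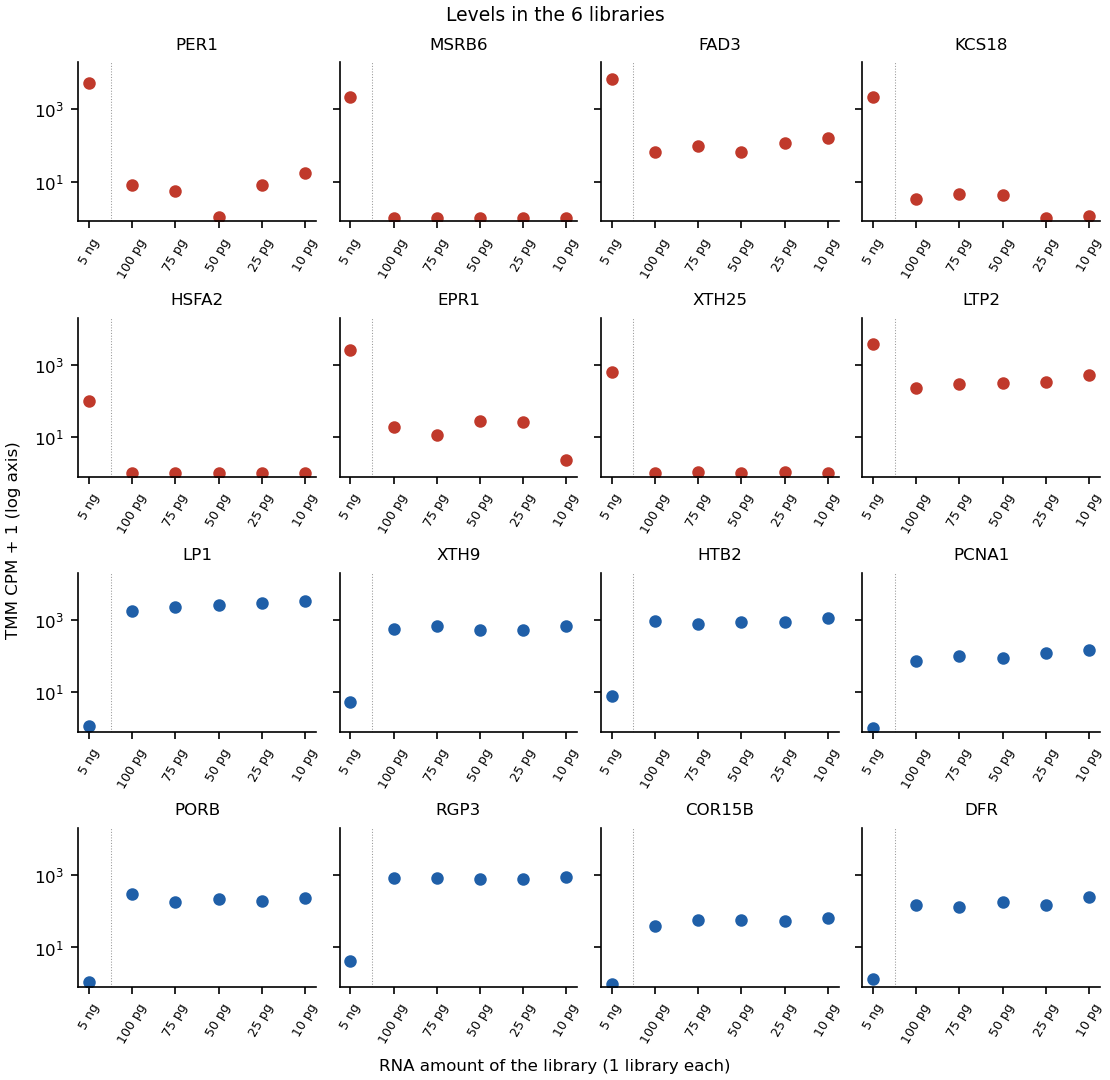
Level of 16 genes in each of the 6 libraries, as TMM CPM plus 1 on a log axis, in the order 5 ng, 100, 75, 50, 25 and 10 pg. The 8 genes in red are higher at 5 ng than in every picogram library, as FAD3 (6717 against 67 to 160.2 TMM CPM), and the 8 in blue lower, as HTB2 (6.85 against 763 to 1095 TMM CPM).

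On the lower side, DNA replication had the highest share of calls among the curated lists next to chlorophyll synthesis. Of 21 genes, 14 were lower at 5 ng and 0 higher, with a median log2 ratio of -4.67, or -4.52 with zeros set to the floor and -5.14 to -3.22 over single libraries. The summed level was 21.6 at 5 ng and 932 to 1112 in the picogram libraries, 12 of the genes had no pair at 5 ng, and edgeR called 0 higher and 13 lower. TSO2, a ribonucleotide reductase subunit, was at 1.47 TMM CPM at 5 ng and 146, 243, 179, 262 and 264 in the picogram libraries. PCNA1, the sliding clamp of DNA polymerase, was at 0 TMM CPM at 5 ng and 73.1, 97.4, 84.5, 119 and 144 in the picogram libraries, at least 381-fold lower. PRL, the MCM7 subunit of the replicative helicase, was at 0 TMM CPM at 5 ng and 144, 53.6, 40.5, 45.9 and 223 in the picogram libraries, at least 211-fold lower. The PRL levels varied more among picogram libraries than those of TSO2 and PCNA1. Of 31 genes of cell cycle and mitosis, 18 were lower and 0 higher (median -3.82, or -3.72 with zeros set to the floor). SYP111 (KNOLLE), the syntaxin of the cell plate, was at 2.56 TMM CPM at 5 ng and 197, 129, 154, 258 and 195 in the picogram libraries. CDC20.1, an activator of the anaphase-promoting complex, was at 3.07 TMM CPM at 5 ng and 105, 72.7, 86.1, 71 and 63.9 in the picogram libraries. CYC1BAT, a B-type cyclin, was at 0 against 41.5 to 130.3 TMM CPM. Kinesins and tubulins were lower in 7 and higher in 0 of 48, among them HIK, the kinesin HINKEL of cytokinesis, at 1.09 against 14.8 to 58.8 TMM CPM, and TUB5, a beta-tubulin, at 9.34 against 134 to 246 TMM CPM.

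Histones followed. Of 41 genes, 23 were lower and 1 higher (median log2 ratio -2.92), with the limit that near-identical copies share reads and pairs that map to several copies were not counted. HTB2, an H2B histone, was at 6.85 TMM CPM at 5 ng and 950.5, 763, 849, 865 and 1095 in the picogram libraries. AT1G09200, an H3 histone, was at 3.9 TMM CPM at 5 ng and 675, 579.7, 653, 650.3 and 615 in the picogram libraries. AT5G10400, another H3 histone, was at 4.67 TMM CPM at 5 ng and 495, 485, 458, 525 and 427 in the picogram libraries. All picogram libraries stood more than 90-fold above the 5 ng library in these 3 genes. The single histone called higher was RAT5, an H2A histone, at 651 TMM CPM at 5 ng and 87.6, 121, 121, 98.5 and 109 in the picogram libraries. Among genes that act on chromatin, 3 of 21 were lower and 0 higher. MET1, the maintenance DNA methyltransferase, was at 1.98 TMM CPM at 5 ng and 59, 46.1, 16.8, 55.9 and 35.2 in the picogram libraries. VIM1, which recruits it to replicated DNA, was at 0 against 13 to 58.1 TMM CPM, at least 67.7-fold lower. AGO4, of RNA-directed DNA methylation, was not called and lay on the higher side at 441 against 50.4 to 172 TMM CPM.

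Promoters are shown for 3 genes lower at 5 ng, chosen as examples of the replication and histone elements, with the same window, build and reading as above. MCM3, another helicase subunit, was chosen after its values were seen and was at 0 against 27.4 to 56 TMM CPM. Capitals mark the E2F site (TTTCCCGC, TTTGGCGC, TTTGCCGC or TTTCGCGC) in the first and the next sequence and the histone octamer (CGCGGATC) in the last, on both strands. The windows are chr4:901125-901374, plus strand, for PRL, chr5:18773704-18773953, minus strand, for MCM3, and chr1:2972335-2972584, minus strand, for AT1G09200.
PRL: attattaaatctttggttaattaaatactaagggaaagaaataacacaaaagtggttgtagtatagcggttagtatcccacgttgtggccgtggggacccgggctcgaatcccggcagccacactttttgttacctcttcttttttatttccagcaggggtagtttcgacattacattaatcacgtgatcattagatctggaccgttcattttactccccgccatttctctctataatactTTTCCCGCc
MCM3: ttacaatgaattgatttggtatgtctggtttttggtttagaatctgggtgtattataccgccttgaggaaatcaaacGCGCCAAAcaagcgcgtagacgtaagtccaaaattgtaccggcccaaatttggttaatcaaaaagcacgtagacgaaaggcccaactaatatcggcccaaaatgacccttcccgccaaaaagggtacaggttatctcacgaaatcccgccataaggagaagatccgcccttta
AT1G09200: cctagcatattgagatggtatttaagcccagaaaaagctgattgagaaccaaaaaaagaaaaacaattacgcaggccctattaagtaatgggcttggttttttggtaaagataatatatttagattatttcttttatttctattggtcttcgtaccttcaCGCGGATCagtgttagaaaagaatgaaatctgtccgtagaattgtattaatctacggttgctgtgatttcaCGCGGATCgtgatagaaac
An E2F site stood in 1.65% of all promoters read, in 0.998% of genes called higher and in 2.91% of genes called lower, and in 11 of the 21 DNA replication promoters. The octamer stood in 0.151%, 0.0665% and 0.565%, and 9 of the 26 promoters that held it belonged to histones. The core of the MSA element of mitotic genes (AACGG, both strands) stood in 23%, 18.2% and 28.2%. Site II motifs (TGGGCC or TGGGCT, both strands), frequent before ribosomal protein genes, stood in 24.9%, 12.9% and 28.7%, and the telo box (AAACCCTA, both strands) in 4.68%, 2.73% and 6.7%.

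Chlorophyll synthesis had 11 of 16 genes lower and 0 higher (median log2 ratio -2.69, range over single libraries -3.18 to -2.67), and its summed level was 229 at 5 ng and 1525 to 2011 in the picogram libraries. PORB, which reduces protochlorophyllide in the light, was at 0.128 TMM CPM at 5 ng and 292, 182, 224, 189 and 226 in the picogram libraries. CHLI1, a subunit of magnesium chelatase, was at 7.81 TMM CPM at 5 ng and 171, 137, 147, 149.9 and 147 in the picogram libraries. CRD1, the cyclase of the pathway, was at 50.8 against 210.3 to 346 TMM CPM. In the photosystems and light harvesting list, 12 of 35 were lower and 0 higher, and the uncalled members did not all share the direction. PSAH2, of photosystem I, was at 6.65 TMM CPM at 5 ng and 176, 447, 415, 378 and 565 in the picogram libraries. PSBR, of photosystem II, was at 1161 TMM CPM at 5 ng and 526, 687, 764, 832 and 1053 in the picogram libraries, above every picogram library. Of 16 genes of the Calvin cycle, 6 were lower and 0 higher. FBA2, a plastid aldolase, was at 34.1 TMM CPM at 5 ng and 341, 255, 326, 251 and 370.3 in the picogram libraries. The small subunit genes of Rubisco are similar in sequence. RBCS1A, the one with the highest level, was uncalled at 6296 against 3917 to 7581 TMM CPM, inside the picogram range. RBCS1B, RBCS2B and RBCS3B were lower, as RBCS2B at 1.02 against 99.2 to 162 TMM CPM. Genes of the chloroplast genome were lower in 17 and higher in 0 of 83, with ATCG01130 at 18 against 939 to 1252 TMM CPM, and mitochondrial genes lower in 0 and higher in 2 of 32. Organelle transcripts mostly lack the stable poly(A) tails on which the kit primes.

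Ribosomal proteins differed less in size but widely. Of 293 genes whose name gives a ribosomal protein, including organelle subunits encoded in the nucleus, 42 were called lower and 1 higher. In 238 of them the ratio was negative against all 5 picogram libraries, as it was in 4663 of the 17293 genes compared. The median log2 ratio was -1.45, and edgeR called 102 lower and 0 higher. RPL5B was at 176 TMM CPM at 5 ng and 1017, 858, 796, 971 and 853 in the picogram libraries. RPS6 was not called, at 284 TMM CPM at 5 ng and 916, 874, 980.0, 1061 and 1001 in the picogram libraries. Both lay below every picogram library at 5 ng. In the curated translation list, 2 of 15 genes were lower and 0 higher, both of them nucleolar proteins of ribosome assembly. FIB2, a fibrillarin that methylates ribosomal RNA, was at 2.5 TMM CPM at 5 ng and 257, 195, 209.6, 188 and 308 in the picogram libraries. NUC-L1, a nucleolin, was at 54.3 TMM CPM at 5 ng and 681, 430.0, 475, 491 and 323 in the picogram libraries. TCTP, a growth-related protein of the same list, was uncalled and on the higher side, at 2780 against 1015 to 1305 TMM CPM. Site II motifs stood in 186 of the 293 promoters of ribosomal protein genes (63.5%).

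Surface lipids and the cell wall held members on both sides. In the wax and cutin list, 9 of 28 were lower and 2 higher. CER1, which makes wax alkanes, was at 0 TMM CPM at 5 ng and 205, 134, 224, 116 and 198 in the picogram libraries. HTH, of cutin synthesis, was at 0.32 TMM CPM at 5 ng and 187, 167, 155, 193 and 126 in the picogram libraries. CYP77A6, a cutin hydroxylase of petals, was on the higher side at 44.7 against 0 to 0.131 TMM CPM. Genes of epidermal identity were called lower in 1 and higher in 0 of 17. Their sum was 4306 at 5 ng and 2973 to 4575 in the picogram libraries, with the 5 ng library inside the picogram range. PDF1 made the largest part of it, at 3418 against 2188 to 3532 TMM CPM. Uncalled members lay on both sides, as HDG2 at 4.86 against 18.6 to 81.7 TMM CPM and TTG1 at 65.8 against 23.2 to 51.3 TMM CPM. GDSL lipases were lower in 13 and higher in 5 of 46. In the wall, expansins, which loosen it, were higher in 6 and lower in 2 of 15. EXPA15 was at 2881 TMM CPM at 5 ng and 132, 133, 197, 135 and 83.8 in the picogram libraries. EXPA6 was at 0 TMM CPM at 5 ng and 86.4, 48.4, 91.1, 43 and 49.6 in the picogram libraries, at least 224-fold lower. RGP3, of a family that supplies arabinose to wall polymers, was at 3.26 TMM CPM at 5 ng and 832, 831, 792, 761 and 911 in the picogram libraries. AGP31, an arabinogalactan protein, was at 2.62 against 438 to 545 TMM CPM, and AGP14, a short member of this group, at 502 against 0 to 0.0459 TMM CPM.

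The list of stress, wound and touch response was mostly on the lower side, with 9 of 21 lower and 2 higher (median log2 ratio -2.05, or -1.98 with zeros set to the floor). CBF2, a regulator of cold response, was at 0 TMM CPM at 5 ng and 59.7, 49, 68, 37.2 and 58.5 in the picogram libraries. COR413-PM1, a membrane protein of cold response, was at 13.3 against 174 to 297 TMM CPM. ERF5, an ethylene response factor, was at 0 against 27.3 to 46.3 TMM CPM. STZ, a zinc finger repressor, was on the higher side at 125 against 5.72 to 11.8 TMM CPM. Flavonoid genes were called 2 higher and 3 lower of 17. DFR, of anthocyanin and tannin synthesis, was at 0.384 TMM CPM at 5 ng and 144, 133, 183, 151 and 242 in the picogram libraries. LDOX, the next enzyme, was at 1.09 TMM CPM at 5 ng and 265, 221, 199.7, 196 and 159 in the picogram libraries. F3H, an earlier enzyme, was higher, at 118 against 13.4 to 24.1 TMM CPM. TT4, the entry enzyme of the pathway, was uncalled at 1883 against 533 to 665 TMM CPM. The late enzymes named here were thus lower at 5 ng, and the early ones were not.

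**Figure D5:**
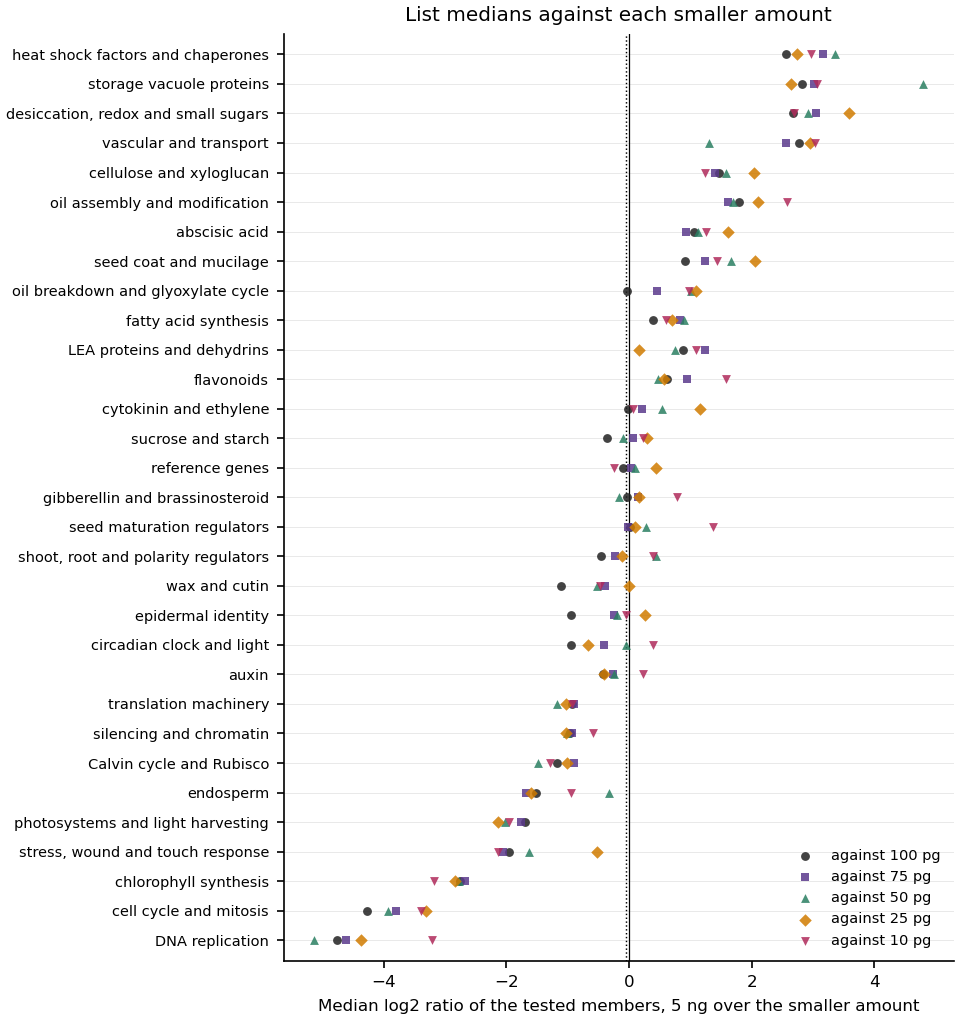
Median log2 ratio of each of 31 curated lists (without storage and oil body proteins), 5 ng against each picogram library, with 1 symbol for each of the 5 amounts and a line at 0. DNA replication lies between -5.14 and -3.22, chlorophyll synthesis between -3.18 and -2.67, and desiccation and redox genes between 2.68 and 3.59.

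Some close relatives were called in opposite directions, which a list count does not show. Of 11062 adjacent gene pairs, related or not, 117 were opposed, 131 were both higher and 82 both lower. Pairs that were both higher thus outnumbered opposed ones, where 8.71% of all genes compared were higher and 7.26% lower. How many opposed pairs these shares alone would give was not computed, and the relatives below are picked examples. LTP2 and LP1 (LTP1) are neighbours on chromosome 2 and encode lipid transfer proteins. LTP2 was at 3799 TMM CPM at 5 ng and 224, 286, 312, 335 and 526 in the picogram libraries. LP1 was at 0.192 TMM CPM at 5 ng and 1778, 2287, 2595, 2871 and 3364 in the picogram libraries. At 5 ng LP1 rested on 3 read pairs, the floor used here. On chromosome 5, XTH25 and TCH4 encode xyloglucan endotransglucosylases. XTH25 was at 614 TMM CPM at 5 ng and 0.023, 0.0661, 0, 0.0571 and 0.0349 in the picogram libraries. TCH4, induced by touch, was at 12.3 TMM CPM at 5 ng and 156, 229, 219.9, 159 and 238 in the picogram libraries. XTH9, elsewhere in the genome, was lower at 4.29 against 523 to 695 TMM CPM. The catalase neighbours on chromosome 1 were also opposed. CAT1 was at 329.9 TMM CPM at 5 ng and 42.6, 33, 32.7, 14.3 and 47.3 in the picogram libraries. CAT3 was at 7.23 TMM CPM at 5 ng and 73, 59.8, 46.7, 75.8 and 125 in the picogram libraries. Aquaporins had 3 higher and 3 lower of 22, with PIP1;5 at 267 against 2.76 to 12.6 TMM CPM and PIP3 at 14.1 against 614 to 972 TMM CPM. MLP28 with MLP31, RRA1 with RRA2, and the GDSL lipases AT1G28650 with AT1G28660 were opposed in the same way. Such relatives share sequence, and how pairs were divided between them was not tested.

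In other functions few genes were called by the fold rule. None of 45 proteasome subunits was called, with a median log2 ratio of 0.17, and edgeR called 1 higher and 0 lower. Pentatricopeptide repeat proteins, which act on organelle RNA, were higher in 1 and lower in 10 of 183, and clock genes higher in 0 and lower in 2 of 21. Of 14 genes commonly used as references, 1 was lower, ACT2, an actin, at 7.87 TMM CPM at 5 ng and 148, 146, 163, 211 and 332 in the picogram libraries, and none was higher. Uncalled reference genes could still lie outside the picogram range. UBQ10 was at 2167 against 405 to 693 TMM CPM, GAPC2 at 1410 against 524 to 624 TMM CPM and TUA6 at 158 against 442 to 679 TMM CPM. ACT7 was inside it, at 699 against 575 to 737 TMM CPM. Without composition factors, 11 of the 33 curated lists and 13 of the 29 name families turned from a positive to a negative median, among them LEA proteins and dehydrins, abscisic acid, fatty acid synthesis, oil assembly, sucrose and starch, seed coat, expansins and lipid transfer proteins. The medians of storage vacuole, desiccation, heat shock, peroxidase and P450 genes stayed positive. Those of DNA replication, cell cycle, histones, chlorophyll and ribosomal proteins stayed negative, but this setting lowers the ratios and could not have turned them.

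The called genes differed little in position and somewhat in structure. On the 5 nuclear chromosomes, 8.18 to 9.40% of the genes compared were higher and 6.90 to 7.76% lower. Genes called higher had a median model length of 1261 bases and 3 exons, genes called lower 1439 bases and 5 exons, and all genes compared 1512 bases and 5 exons. GC content was between 41.6 and 41.7% in all of these. Of the 20 genes called lower with the highest picogram levels, 8 had a run of 26 to 37 A or T in their transcript, and none of the 20 highest on the other side had a run of 20. AT5G18610, a protein kinase, was such a gene at 2423 TMM CPM at 5 ng and 22993, 19024, 10081, 29153 and 30557 in the picogram libraries. Genes with runs of at least 20 were 142 of those compared, of which 6 were higher and 17 lower, and these 17 took 3.57 to 8.06% of the read pairs in the picogram libraries, of the 18.8 to 22.4% taken by all 1256. Among the most abundant genes called lower without such runs were GRP7, an RNA-binding protein of the clock, at 227 against 2245 to 3839 TMM CPM, LCR69, a cysteine-rich peptide, at 166 against 1339.6 to 3789 TMM CPM, and AAC1, the ADP/ATP carrier of mitochondria, at 195 against 899.7 to 1332 TMM CPM. At the edge of the rule, GSA2, of tetrapyrrole synthesis, was just inside on the lower side at 16.6 against 69.3 to 177 TMM CPM and AT2G33430 just outside at 7.68 against 33.6 to 108 TMM CPM. On the higher side, AT1G50040 was just inside at 3.01 against 0 TMM CPM and AT1G56670 just outside at 3.26 against 0 to 0.0661 TMM CPM.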

How the data were processed

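The 6 libraries, 1 per RNA amount, were analysed as read pairs per gene model. The deposited values are raw counts of pairs. According to the paper, the authors obtained them after quality trimming, depletion of ribosomal reads and Bowtie2 alignment to 33602 representative models of TAIR10, keeping a pair where both of its reads pointed to a single model. The submitters' processing notes also name TopHat2. Their correction for sequencing date was not repeated. Counts of single reads were not used.

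TMM factors and the quasi-likelihood test were computed with edgeR 4.0.16 in R 4.3.3, size factors for alternatives with DESeq2 1.42.0, and tables with Python 3.11.15 and pandas 2.3.3. The scripts were tested on simulated data. The filter, the pseudocount of 1 TMM CPM and the 4-fold rule are given with the results. Coordinates, names and promoters are those of TAIR10.1, which held 97.72% of the models, and 37.46% of the matched models had the length of a transcript there. Of 663 list entries, 13 were dropped because the symbol did not match.

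The comparison, lists and members were chosen with earlier results of these data known. Named were, per list and direction, up to 5 called genes with the highest level on the higher side and up to 3 uncalled genes with the highest mean, the 20 called genes per direction with the highest level outside the storage and oil body lists, and 2 genes on each side of the threshold. From these a selection is printed. MCM3 was added afterwards.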

Additional observations from a re-analysis of the deposited data

How the results depend on the processing

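The main rule called 1506 genes higher and 1256 lower at 5 ng. Without composition factors these numbers were 553 and 3448, with a pseudocount of 5 they were 912 and 609, with a 2-fold rule 2776 and 2398, and with an 8-fold rule 835 and 651. Over the 100, 75 and 50 pg libraries alone, 2064 genes were lower. Leaving out 1 picogram library at a time gave 1627 to 1653 higher and 1316 to 1633 lower. The other settings (DESeq2 factors, TMM without the storage and oil body genes, a pseudocount of 0.5, other filters, thinning to the same total of pairs and, chosen after seeing the data, leaving out genes with runs of A or T) stayed within 1.5 times of both counts. edgeR called 883 higher and 1206 lower, 58 and 156 with the log2 amount as a covariate, and 594 to 1246 and 795 to 1769 when 1 picogram library was left out. The lowest count of lower genes, 795, was without 75 pg. DESeq2's Wald test called 954 higher and 2776 lower of 16504 genes with an adjusted p. Of the 33 lists, 10 had a median of at least 2 in size, and 17 without composition factors. DESeq2 factors moved the median of all genes by 0.18. No paired analysis was possible because each amount had 1 library and no library of the 5 ng amount shared a pairing with the others.

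The limits are those of the design. With 1 library per amount, the calls describe these 6 libraries. The smaller effective depth at 5 ng, where 3 pairs equal 0.192 TMM CPM against 0.0689 to 0.105 elsewhere, limits the low levels there. Near-identical copies were counted only where pairs were unambiguous, and counting without strand does not separate antisense transcripts.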
